A study of Mus musculus with 8 samples.

Results

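The myosin-gene miRNAs miR-208a-3p, miR-208b-3p and miR-499-5p were examined in mouse hearts 21 days after myocardial infarction (MI). They are 3 probe sets of the 3222 on the array, and 3 of its 1908 probe sets for mature miRNAs. They were picked out by identifier, MIMAT0000520_st for miR-208a-3p, MIMAT0004939_st for miR-208b-3p and MIMAT0003482_st for miR-499-5p, a rule that uses no measured value. The MI group held 4 hearts, numbered 1, 4, 5 and 7, in which the left anterior descending coronary artery had been tied off 21 days earlier. The sham group held 4 hearts, numbered 1 to 4, taken 21 days after a sham operation. All mice were C57/BL6 males of 8 weeks, no transgene or other allele is given for either group, and each heart had 1 Affymetrix miRNA 4.0 array. Every title carries the suffix nc, which the labels do not explain, so both groups share whatever it stands for. The labels call the tissue heart and do not say whether scar, border or remote muscle was taken.

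A miRNA is a short RNA that guides silencing proteins to messenger RNAs that pair with it, mainly through its seed, bases 2 to 8 from the 5′ end. The myosin-gene miRNAs are cut from introns of the genes for myosin heavy chains, the motor proteins of muscle, and so are made together with their host transcripts. Myh6 encodes the alpha chain, the main myosin of the adult mouse heart, and hosts miR-208a. Myh7 encodes the beta chain, which predominates in the fetal heart and in slow skeletal muscle and returns in the stressed adult heart, and hosts miR-208b. Myh7b encodes a related slow-type chain and hosts miR-499. In mice, miR-208a is needed for the return of the beta chain under stress, and miR-208b and miR-499 favour slow muscle fibres.

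The mature sequences are shown because the first pair shares a seed and the remaining member differs from them within it. They are RefSeq's, 5′ to 3′, with the seed in capitals.
miR-208a-3p: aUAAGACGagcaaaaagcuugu
miR-208b-3p: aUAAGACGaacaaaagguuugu
miR-499-5p: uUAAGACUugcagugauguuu
Counted from the 5′ end, miR-208a-3p and miR-208b-3p were identical at 19 of 22 positions. Their 3 differences, with the base of miR-208a-3p first, were G10A, A16G and C18U, all outside the seed. Over the 21 positions that can be compared without gaps, miR-499-5p matched miR-208a-3p at 12 and miR-208b-3p at 10, and its only seed difference from either was G8U, with the base of miR-208a-3p or miR-208b-3p first. Among 1679 mouse mature miRNA names in the RefSeq table, only miR-208a-3p and miR-208b-3p had the seed UAAGACG, and only miR-499-5p had UAAGACU.

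The hairpin precursors show which arm each probe set was designed to measure. In the following RefSeq hairpins the measured mature miRNA is in capitals.
Mir208a: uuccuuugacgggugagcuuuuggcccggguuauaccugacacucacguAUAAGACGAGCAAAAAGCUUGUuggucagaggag
Mir208b: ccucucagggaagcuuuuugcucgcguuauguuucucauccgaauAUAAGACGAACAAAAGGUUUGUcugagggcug
Mir499: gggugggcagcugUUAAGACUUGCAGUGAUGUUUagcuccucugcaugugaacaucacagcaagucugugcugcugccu
In GRCm38.p6, mature miR-208a-3p lies at chr14:54949072-54949093 on the minus strand, inside the span of Myh6 (chr14:54941921-54968017). Mature miR-208b-3p lies at chr14:54975710-54975731 on the minus strand, inside Myh7 (chr14:54970684-54994626). The Mir208a and Mir208b hairpins are 26557 bases apart in neighbouring genes. Mature miR-499-5p lies at chr2:155622893-155622913 on the plus strand, inside Myh7b (chr2:155611243-155634307). In all 3 loci the miRNA and its host run on the same strand. The precursors' own probe sets and the opposite arms were not analysed here, because no table used here pairs their identifiers with names.

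At 21 days after ligation, none of the 3 members differed between MI and sham hearts past the threshold, a Benjamini-Hochberg adjusted p of 0.05 in limma over all mature probe sets. Of the members, 0 of 3 rose and 0 of 3 fell, and 0 of 3 had an unadjusted p under that value in limma or an adjusted p under it in the unmoderated test. Over all 1908 mature probe sets, 0.524% passed in limma, all 10 of them higher in MI. At an unadjusted p under 0.05, 6.29% did. In 0 of the 3 members did the MI hearts lie wholly apart from the sham hearts, against 4.14% of all mature probe sets. The median fitted difference, MI minus sham, was -0.05 log2 units over the 3 members and -0.0039 over all mature probe sets. With members this few, their count says nothing that sets them apart from the other probe sets.

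Levels are RMA intensities on the log2 scale, as deposited, so a difference of 1 is a doubling of intensity. Background was judged from 17 dim spike-in controls, whose values over all 8 arrays ran from 0.789 to 2.06. The 2.06 was read on the array of sham heart 2. On the other arrays the highest dim control ran from 1.45, in MI heart 4, to 1.80, in sham heart 1. Of the mature probe sets, 1387 (72.7%) had a mean over the 8 arrays that was not above 2.06. Differences between probe sets in the response to their targets prevent a ranking of the members by abundance. In whole tissue, fewer muscle cells and less RNA per muscle cell cannot be told apart.

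**Figure D1:**
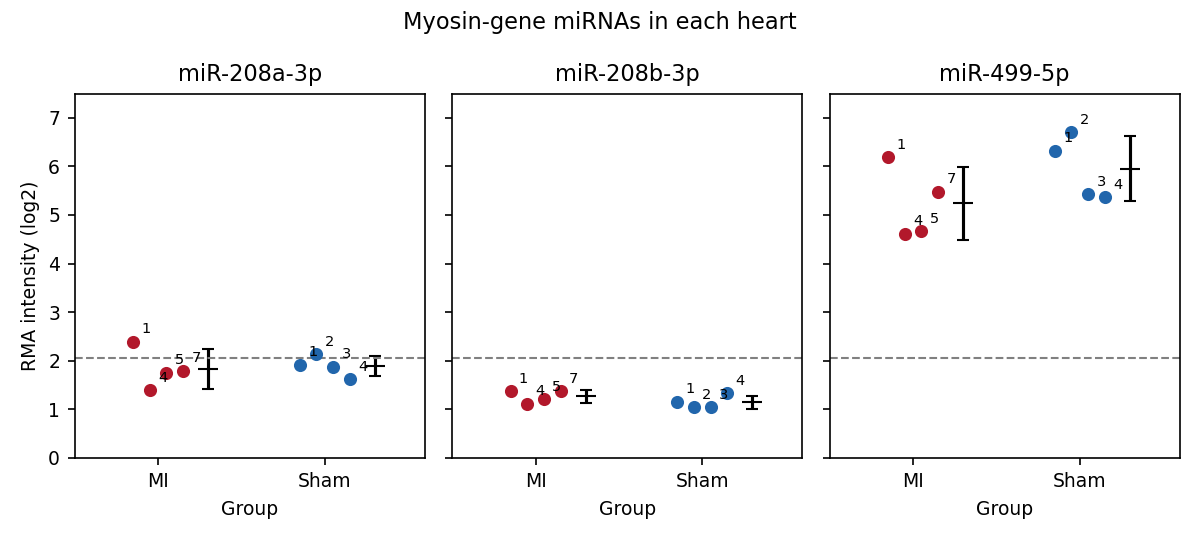
RMA intensity (log2, y axis) of each member in each heart, MI left and sham right in each panel. Points are hearts with their numbers, the cross with its bar is the mean ± SD of 4 hearts, and the dashed line is the highest dim control, 2.06. miR-208b-3p lies under that line in all 8 hearts and miR-208a-3p in 6 of 8, while miR-499-5p lies above it in all 8, and MI and sham overlap in every panel.

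miR-208a-3p, the Myh6 miRNA, measured 2.39, 1.39, 1.76 and 1.80 log2 units in MI hearts 1, 4, 5 and 7, against 1.92, 2.14, 1.88 and 1.62 in sham hearts 1 to 4. MI heart 1 was the highest of all 8 and MI heart 4 the lowest, so the sham hearts fell within the range of the MI hearts. Only MI heart 1 and sham heart 2 exceeded the 2.06 of the dim controls. Set against the controls of its own array, miR-208a-3p exceeded all 17 dim controls in 3 of 4 MI hearts and in 4 of 4 sham hearts. In MI heart 4 it exceeded 16 of 17. It thus read at or just above the background, although miR-208a is a defining miRNA of heart muscle in the mouse and the labels name the tissue as heart. Whether this probe set responds to miR-208a at all was not tested.

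The mean of miR-208a-3p was 1.83 ± 0.415 (SD, n = 4) log2 units in MI hearts and 1.89 ± 0.211 (SD, n = 4) in sham hearts. The difference was -0.05 ± 0.211 (standard error; limma, adjusted p = 0.979, 95% interval -0.54 to 0.43). Its sign turned to 0.06 when each array was centred on the median of its brightest 25% of mature probe sets, to 0.09 without MI heart 4 and to 0.03 without sham heart 2. Without MI heart 1 the difference was -0.24. No fold change is given, since both group means lie under the highest dim control.

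miR-208b-3p, the Myh7 miRNA, measured 1.37, 1.12, 1.21 and 1.37 log2 units in MI hearts 1, 4, 5 and 7, against 1.15, 1.05, 1.04 and 1.34 in sham hearts 1 to 4. The groups overlapped, as sham heart 4 lay above MI hearts 4 and 5. No heart of either group reached the 2.06 of the dim controls. Against the dim controls of its own array, miR-208b-3p exceeded between 5 and 15 of 17 in MI hearts and between 4 and 10 of 17 in sham hearts, so it read among them everywhere.

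The mean of miR-208b-3p was 1.26 ± 0.126 (SD, n = 4) log2 units in MI hearts and 1.14 ± 0.138 (SD, n = 4) in sham hearts. The difference was 0.12 ± 0.104 (standard error; limma, adjusted p = 0.928, 95% interval -0.12 to 0.36). The interval describes the intensities only. With readings among the dim controls, a fall or a small rise of miR-208b itself in MI hearts could not have been seen. Whether this probe set responds to miR-208b at all was not tested, and no fold is given.

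miR-499-5p, the Myh7b miRNA, was the one member well above background. It measured 6.19, 4.62, 4.66 and 5.48 log2 units in MI hearts 1, 4, 5 and 7, against 6.32, 6.71, 5.43 and 5.36 in sham hearts 1 to 4. MI hearts 4 and 5 lay below every sham heart and sham hearts 1 and 2 above every MI heart, while MI hearts 1 and 7 lay within the sham range. It exceeded all 17 dim controls of its own array in all 8 hearts.

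The mean of miR-499-5p was 5.24 ± 0.748 (SD, n = 4) log2 units in MI hearts and 5.95 ± 0.666 (SD, n = 4) in sham hearts. The difference was -0.72 ± 0.437 (standard error; limma, unadjusted p = 0.139, adjusted p = 0.882). Converted from log2 units, the ratio of geometric means, MI over sham, was 0.609, with a 95% interval from 0.303 to 1.22. The interval spans a loss and a gain, so the data neither show a fall nor show that the level stayed the same. The difference was negative under all 18 alternatives. Some of these change only the standard error or the adjustment, so they cannot alter the difference. Leaving out single hearts moved it between -0.47, without sham heart 2, and -1.03, without MI heart 1, where the unadjusted p was 0.0340 and the adjusted p 0.536 (limma).

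Among the 271 mature probe sets that averaged at least 5 log2 units, the median difference, MI minus sham, was -0.11 log2 units, and 14 had a more negative difference than miR-499-5p. Its hearts also varied widely within groups. The pooled within-group SD of miR-499-5p was 0.708 log2 units, against a median of 0.404 over the 271, and 34 of them had a larger SD.

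**Figure D2:**
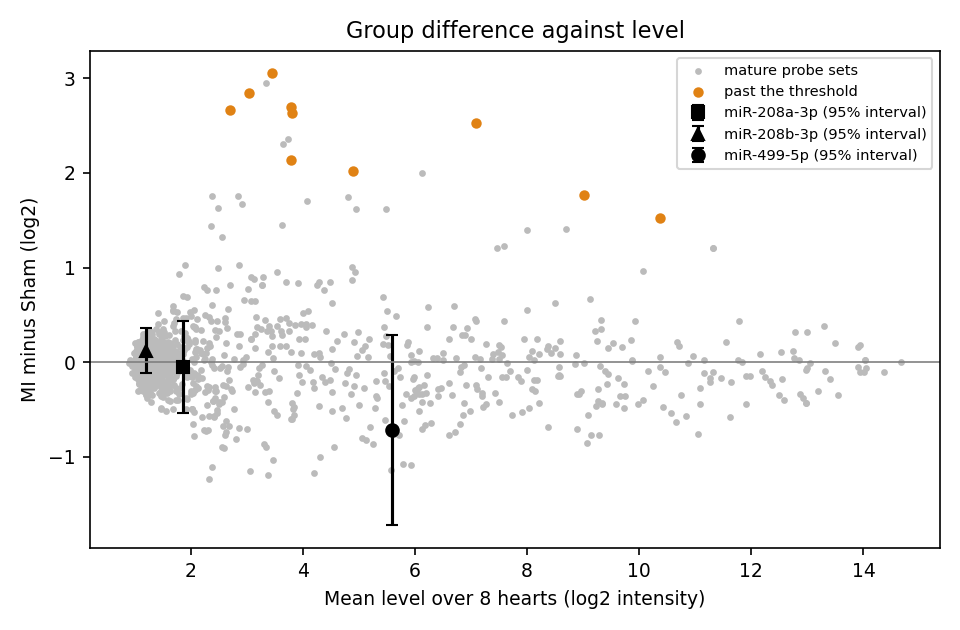
MI minus sham difference (log2, y axis) against the mean level over 8 hearts (log2 intensity, x axis) for the 1908 mature probe sets, with the 10 past the threshold in orange and the members in black with 95% intervals. The interval of each member crosses 0, and miR-499-5p, at a mean of 5.60, has the widest of the 3.

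Within a heart, an array shift equal in log2 units for both probe sets cancels from the difference between miR-208b-3p and miR-208a-3p. A shift that depends on intensity need not cancel. The difference follows the balance of the Myh7 and Myh6 miRNAs where both are measured. It was -1.02, -0.27, -0.55 and -0.43 log2 units in MI hearts 1, 4, 5 and 7, against -0.76, -1.09, -0.84 and -0.29 in sham hearts 1 to 4. The ranges overlapped nearly in full, from -1.02 to -0.27 in MI hearts and from -1.09 to -0.29 in sham hearts. The mean was -0.57 ± 0.323 (SD, n = 4) in MI hearts and -0.74 ± 0.336 (SD, n = 4) in sham hearts. The MI hearts were thus higher by 0.18, which did not exceed the spread (exact two-sided permutation test over 70 assignments, p = 0.429, where 0.0286 is the smallest possible).

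One side of this difference, miR-208b-3p, read among the dim controls in every heart. Over the 8 hearts it ran from 1.04 to 1.37 log2 units, while miR-208a-3p ran from 1.39 to 2.39. MI heart 1 and sham heart 2, the hearts highest in miR-208a-3p, had the most negative difference of their groups. With every value under 2.06 set to 2.06, the group difference was -0.06 (exact permutation test, p = 1). That setting makes the difference 0 in 6 of the 8 hearts, so its sign comes from miR-208a-3p in MI heart 1 and sham heart 2 alone and is no evidence of a direction.

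**Figure D3:**
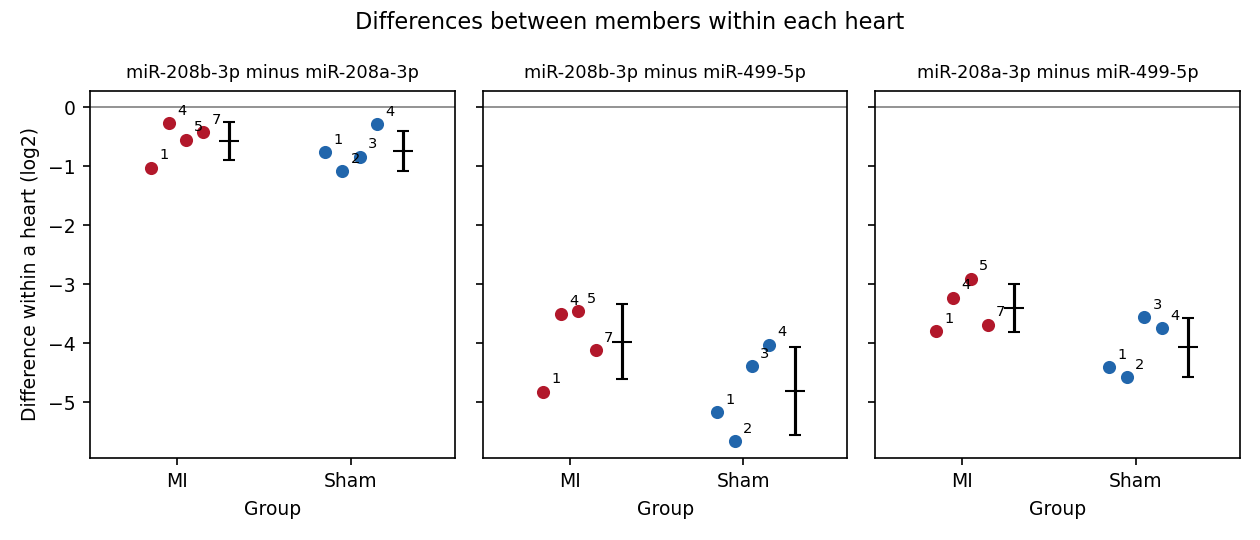
Difference between 2 members within each heart (log2, y axis), MI left and sham right in each panel, with heart numbers and the mean ± SD of 4 hearts. In the panel of miR-208b-3p minus miR-208a-3p the hearts of both groups cover nearly the same range. The panels with miR-499-5p sit lower because of its brighter probe set, and only their group differences can be read.

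Set against miR-499-5p, both miR-208 members had less negative means in MI hearts, and all groups overlapped. The difference of miR-208b-3p minus miR-499-5p was -3.97 ± 0.639 (SD, n = 4) log2 units in MI hearts and -4.81 ± 0.740 (SD, n = 4) in sham hearts. The difference of miR-208a-3p minus miR-499-5p was -3.40 ± 0.413 (SD, n = 4) in MI hearts, from -3.80 to -2.91, and -4.07 ± 0.497 (SD, n = 4) in sham hearts, from -4.57 to -3.55. These differences were not tested. Since miR-208b-3p was not above 2.06 in any of the 8 hearts and miR-208a-3p was not in 6 of 8, they largely restate the miR-499-5p difference of -0.72 with its sign turned and say little of the miR-208 members.

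From heart to heart, miR-499-5p tended to run opposite to the array's hybridisation controls, a relation that did not pass after adjustment. These controls are bacterial transcripts that are added to every array and hold no heart RNA. The mean of 15 bioB and bioC probe sets was 11.4, 11.6, 11.7 and 11.4 log2 units in MI hearts 1, 4, 5 and 7, against 11.2, 11.1, 11.9 and 11.6 in sham hearts 1 to 4. In each group the pair of hearts with the lower controls, MI hearts 1 and 7 and sham hearts 1 and 2, had the higher miR-499-5p. Over the 8 hearts Pearson's r was -0.758 (exact permutation p = 0.0327, adjusted p = 0.0981 over 6 relations) and Spearman's rho was -0.786 (exact permutation p = 0.0279, adjusted p = 0.0838). Without the 2 hearts farthest from the median of the controls, sham hearts 2 and 3, r was -0.866, and after subtraction of each group's mean it was -0.824. Of the brighter probe sets, 13 of 271 had a more negative r with the controls.

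The controls themselves averaged 11.5 ± 0.147 (SD, n = 4) log2 units in MI hearts and 11.4 ± 0.367 (SD, n = 4) in sham hearts. No group difference of the controls was detected (exact permutation test, p = 0.857). With their mean as a covariate, the difference of miR-499-5p was -0.61 with a smaller standard error of 0.269 (limma, unadjusted p = 0.0549, adjusted p = 0.701). This covariate was added after seeing the data, and its correlation with miR-499-5p comes from the same hearts. The smaller standard error is thus no separate evidence. The part of the hybridisation in the spread of miR-499-5p was not tested further. For miR-208a-3p the correlation with the controls was -0.471 (rho -0.595, exact permutation p = 0.240 and 0.132, adjusted p = 0.479 and 0.265). For miR-208b-3p it was -0.072 (rho -0.132, exact permutation p = 0.864 and 0.758, adjusted p = 0.866 and 0.990).

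miR-208a-3p and miR-499-5p, which come from different chromosomes and hosts, ordered the hearts in much the same way. Over the 8 hearts r was 0.788 (exact permutation p = 0.0187, adjusted p = 0.0981 over 6 relations) and rho was 0.881 (exact permutation p = 0.00724, adjusted p = 0.0435). Without MI hearts 1 and 4, the farthest from the median of miR-208a-3p, r was 0.797, and with group means subtracted it was 0.861. So the rank correlation passed after adjustment over the 6 rank correlations, and Pearson's r did not over its own 6. Both measures were adjusted apart and no adjustment over them together was run, so the pass is tentative. The values of both miRNAs share the array and its normalization, and those of miR-208a-3p lie at or just above the background level.

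miR-208b-3p moved with neither of the others over the 8 hearts. Its r was 0.131 with miR-208a-3p (rho 0.024, exact permutation p = 0.752 and 0.964, adjusted p = 0.866 and 0.990) and -0.067 with miR-499-5p (rho -0.012, exact permutation p = 0.866 and 0.990, adjusted p = 0.866 and 0.990). The r with miR-208a-3p depended on which hearts were kept, as it was -0.751 over the 6 hearts without MI hearts 1 and 4, a value not tested. Without MI hearts 1 and 7, r with miR-499-5p was -0.326. In both MI hearts 1 and 7 miR-208b-3p had the same value, and 207 of the mature probe sets (10.8%) likewise had a value that was equal, in every deposited digit, on 2 or more arrays.

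**Figure D4:**
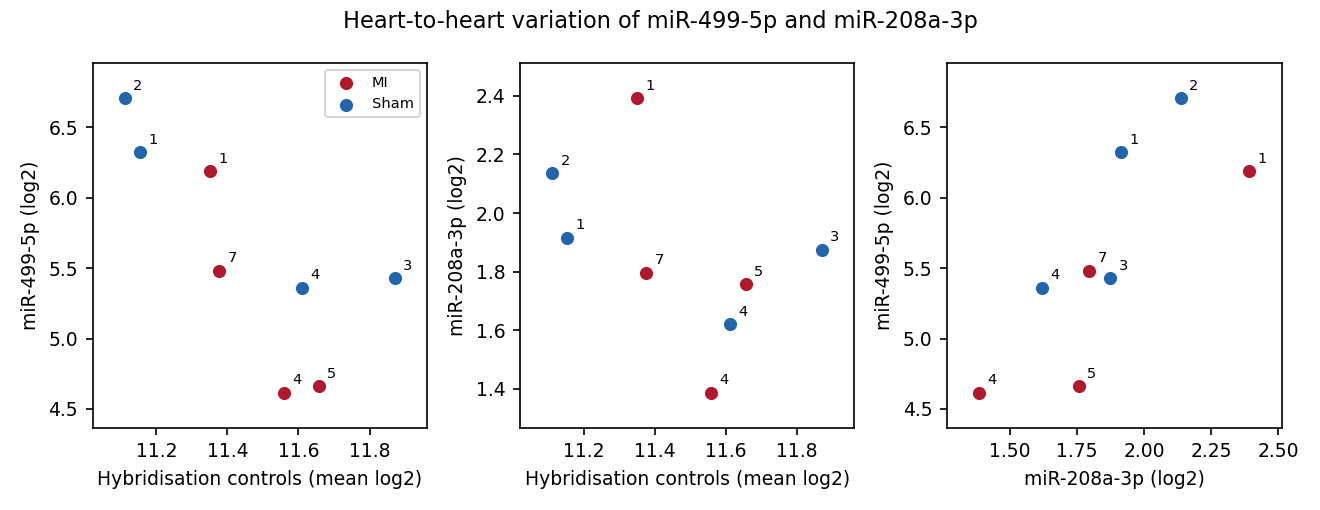
Each point is a heart with its number, MI in red and sham in blue, on log2 axes. miR-499-5p is plotted against the mean of the hybridisation controls (r = -0.758), miR-208a-3p against the same controls (r = -0.471), and miR-499-5p against miR-208a-3p (r = 0.788); in the last panel the hearts run from MI heart 4 at the low end to sham heart 2 and MI heart 1 at the high end.

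Likeness of pattern was measured as Pearson's r over the 8 hearts with those same brighter probe sets, as a description. For miR-208a-3p, miR-499-5p was the third nearest of 271, at 0.788, behind probe sets at 0.857 and 0.818. For miR-499-5p, the nearest of the other 270 were MIMAT0028068_st, at 0.827, and MIMAT0014801_st, at 0.813, with the next at 0.763. MIMAT0014801_st was also the nearest to miR-208a-3p. The mean of MIMAT0014801_st, MI minus sham, differed by -0.80 log2 units and that of MIMAT0028068_st by -0.49. That of the second nearest to miR-208a-3p, with a mean level of 14.7, differed by only -0.0016. For miR-208b-3p the highest values were lower, from 0.571 to 0.725, and none of its 3 nearest was among those of the other members. The files do not pair these identifiers with miRNA names.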

How the data were processed

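miRNAs of 8 mouse hearts were measured on 1-colour Affymetrix miRNA 4.0 arrays from poly(A)-tailed, biotin-labelled total RNA, per the labels' protocols. The table deposited by the authors holds log2 intensities from RMA, as named in the submitters' processing notes. This method subtracts background, equalizes the arrays and combines the probes of a set. Neither its version nor detection calls were given. Scanner files were not used, so the background step could not be varied. The number of arrays limits the precision, and the labels do not say more of the replicates than that they are numbered hearts.

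Groups and heart numbers come from the sample titles. Members were taken by identifier with the names given for them, and their sequences by name from RefSeq (GRCm38.p6), where 3 of 3 matched. The rule for the members uses identifiers only, but the members, lists and tests were proposed with earlier results of these data known. limma 3.58.1 in R 4.3.3 (lmFit, eBayes, two-sided, group as the only term) was run on all 1908 mature probe sets without a filter, with Benjamini-Hochberg adjustment over them and a threshold of 0.05. It was tested on simulated data. Values measured once per heart were compared by exact two-sided permutation, and correlations by exact permutation over 6 relations. The p-values of the correlations were adjusted apart for Pearson's r and for rho. The 17 dim controls are the spike-in probe sets that stay under 5 on every array, a limit chosen after seeing the data. The rule for other named probe sets was the 3 most alike to each member, of which at most 2 identifiers are printed. The planned lists of muscle, fibroblast, leukocyte, red cell, endothelial, smooth muscle and off-heart miRNAs were not tested, because their identifiers could not be paired with names, so the tissue label was checked only through the members.

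The groups share the heart numbers 1 and 4 only. The correlation of deviations from the group means was -0.294 for number 1 and -0.045 for number 4, and no pairing was assumed.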

Additional observations from a re-analysis of the deposited data

How the results depend on the processing

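No member passed the threshold under any alternative run on it, with adjusted p from 0.536 to 0.999 (limma and the unmoderated test). miR-499-5p kept its sign in all 18, from -1.03 to -0.44 log2 units. miR-208b-3p kept it in 15 of 16, and miR-208a-3p in 13 of 17. The brightest subsets, the robust prior, the adjustment with hairpins and the unmoderated test leave the difference itself unchanged. Their sign was fixed in advance, so these tallies overstate how stable the sign is. For miR-208a-3p the difference turned to 0.055 after centring on the brightest 25% and to 0.12 with the replicate block, and leaving out each heart gave -0.24 to 0.094. For miR-208b-3p the replicate block gave -0.0023, and leaving out each heart gave 0.086 to 0.19. For miR-499-5p leaving out each heart gave -1.03 to -0.47 and the replicate block -0.44 (adjusted p = 0.999). With 2 shared numbers, the block estimates the difference from hearts 1 and 4 of each group alone and leaves 1 residual degree of freedom. The shift of miR-208b-3p minus miR-208a-3p, 0.18 log2 units, was -0.12 with the replicate block, -0.064 with values under the highest dim control set to it, and 0.06 to 0.33 without each heart (exact permutation p from 0.171 to 0.800). What lies behind the reversals, beyond the hearts and values that each setting uses, was not tested. The count of all mature probe sets past the threshold, 10, was 20 in the brightest 50%, 22 in the brightest 25%, 25 after centring on the brightest 25%, 17 with array weights, 18 with a robust prior that follows intensity, 0 with the replicate block, and 7 to 17 without each heart, highest without sham heart 3. The brightest 50% and 25% hold fewer probe sets than the full 1908, so their counts are larger shares of smaller totals. miR-208b-3p was not among the brightest 50%, and neither miR-208 member among the brightest 25%, so these gave no value. The hybridisation covariate and the setting of low values to the highest dim control were added after seeing the data. The alternatives for the miRNA lists were not run, because their identifiers could not be paired with names. Signal among the dim controls for miR-208b-3p, and at or just above background for miR-208a-3p, limits what can be seen of both.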

Other observations

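In none of the 14 groups of 4 hearts examined (each member, each difference between members and the hybridisation controls) did 1 heart stand far from the rest. The largest gap was 0.628 of a group's range, under Dixon's critical value for 4 samples.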
